A study of Rattus norvegicus with 28 samples.

Results

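The genes described here carry fatty acids into the cardiomyocyte and burn them in the mitochondrion. The set was drawn up by name as 42 genes of fatty acid uptake, activation, the carnitine shuttle, beta oxidation, electron transfer to the respiratory chain, their transcriptional regulators and triglyceride turnover. A gene was measured where a probe carried its symbol and no other, with the brightest such probe standing for it, and 38 of the 42 genes had one. Acsl5, Crat, Acacb and Lipe had no such probe and were not analysed here. Each measured gene had 1 probe, and all 38 were brighter than the level under which probes were set aside, so none was lost to that filter. They are 38 of the 11493 genes tested.

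The samples were left ventricles of 28 male rats, each hybridised to its own array. The control group was 8 non-transgenic Sprague Dawley (SD) rats that received no treatment. The other 20 rats were dTGR [SD-Tg(hAGT)L1623xTg(hREN)L10J], a double transgenic line on the SD background that carries the human angiotensinogen and human renin genes, and their labelled phenotype was HFpEF (hypertension induced), heart failure with preserved ejection fraction. Of these, 8 received a vehicle of Transcutol, Cremophor-EL and water in 10, 20 and 70 parts and 12 received BAY 41-8543, a stimulator of soluble guanylate cyclase, at 3 mg/kg/day. Rats were assigned at 3.5 weeks of age, dTGR were gavaged once daily from 4 weeks, and hearts were taken at 7 weeks, while the series' design text gives 4 weeks of treatment. The SD rats differed from the vehicle dTGR in genotype and in the absence of vehicle gavage, which cannot be told apart here. Numbers in the sample titles run in a separate block for each group. Any cohort or processing order that followed those numbers cannot be told apart from group either. The sources used here do not say which promoters drive the transgenes or in which cells.

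Fatty acids are the main fuel of the adult heart. Lipoprotein lipase frees them from circulating triglyceride, CD36 and fatty acid transport proteins take them up, and acyl-CoA synthetases activate them. The carnitine shuttle moves the acyl group into the mitochondrial matrix, where beta oxidation shortens it by repeated dehydrogenation, hydration, a second dehydrogenation and thiolysis, and the electrons reach the respiratory chain through the electron transfer flavoprotein. PPAR alpha with its RXR partner, estrogen-related receptor alpha and the coactivators PGC-1 alpha and PGC-1 beta are known to drive transcription of many of these genes in heart muscle.

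All values are log2 of the deposited intensities, and differences are first group minus second on that scale. A gene was called at an adjusted p under 0.05 in a limma fit over all 11493 genes. Across arrays the median intensity lay between 99.5 and 107 with quartiles of 45.1 to 46.3 and 651 to 670, no arrays were identical, and correlations between arrays ranged from 0.926 to 0.957. On the first principal component of all genes, which held 19.0% of the variance, SD arrays lay between -22.9 and -17.1 and treated arrays between -7.94 and 4.72. Of the vehicle arrays, replicate 6 (-0.84) and replicate 7 (-2.92) fell within the treated span, replicate 3 was at 10.2, and the other 5 vehicle arrays were between 28.2 and 41.3. Comparisons with the vehicle group are therefore also given without replicates 6 and 7 where a call changed. Those replicates were picked from the same data, as the vehicle arrays lying within the treated span. Leaving them out tends by design to widen the differences of the vehicle group from treated and SD arrays. Larger differences or added calls in that fit are therefore no independent check of a result.

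Among vehicle dTGR and SD rats, the question was how the transgenic ventricle differs in these genes. In vehicle dTGR 21 of the 38 genes fell and 3 rose, against 11.7% of all tested genes called lower and 12.1% called higher, 23.8% in all. The median difference was -0.24 for the 38 genes and 0.0033 for all genes. The shares over all genes, here and below, are not matched for brightness. The dimmest of the 38 genes averaged 8.94, where probes were set aside under 5.65. With that filter raised to the median of all probes, 2808 of 9161 genes were called in this comparison. Of the enzymes of beta oxidation, the largest step of the set, 11 of 15 were lower, led by Ech1 and Eci1. All 3 regulators were lower, while the genes that rose were Fabp4, Acsl3 and Pnpla2. For 6 genes every vehicle array lay below every SD array, where 2.11% of all genes did so, and 0 lay wholly above, where 1.96% did. These are whole-tissue RNA levels, in which fewer cells of a type and less RNA per cell cannot be told apart.

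**Figure D1:**
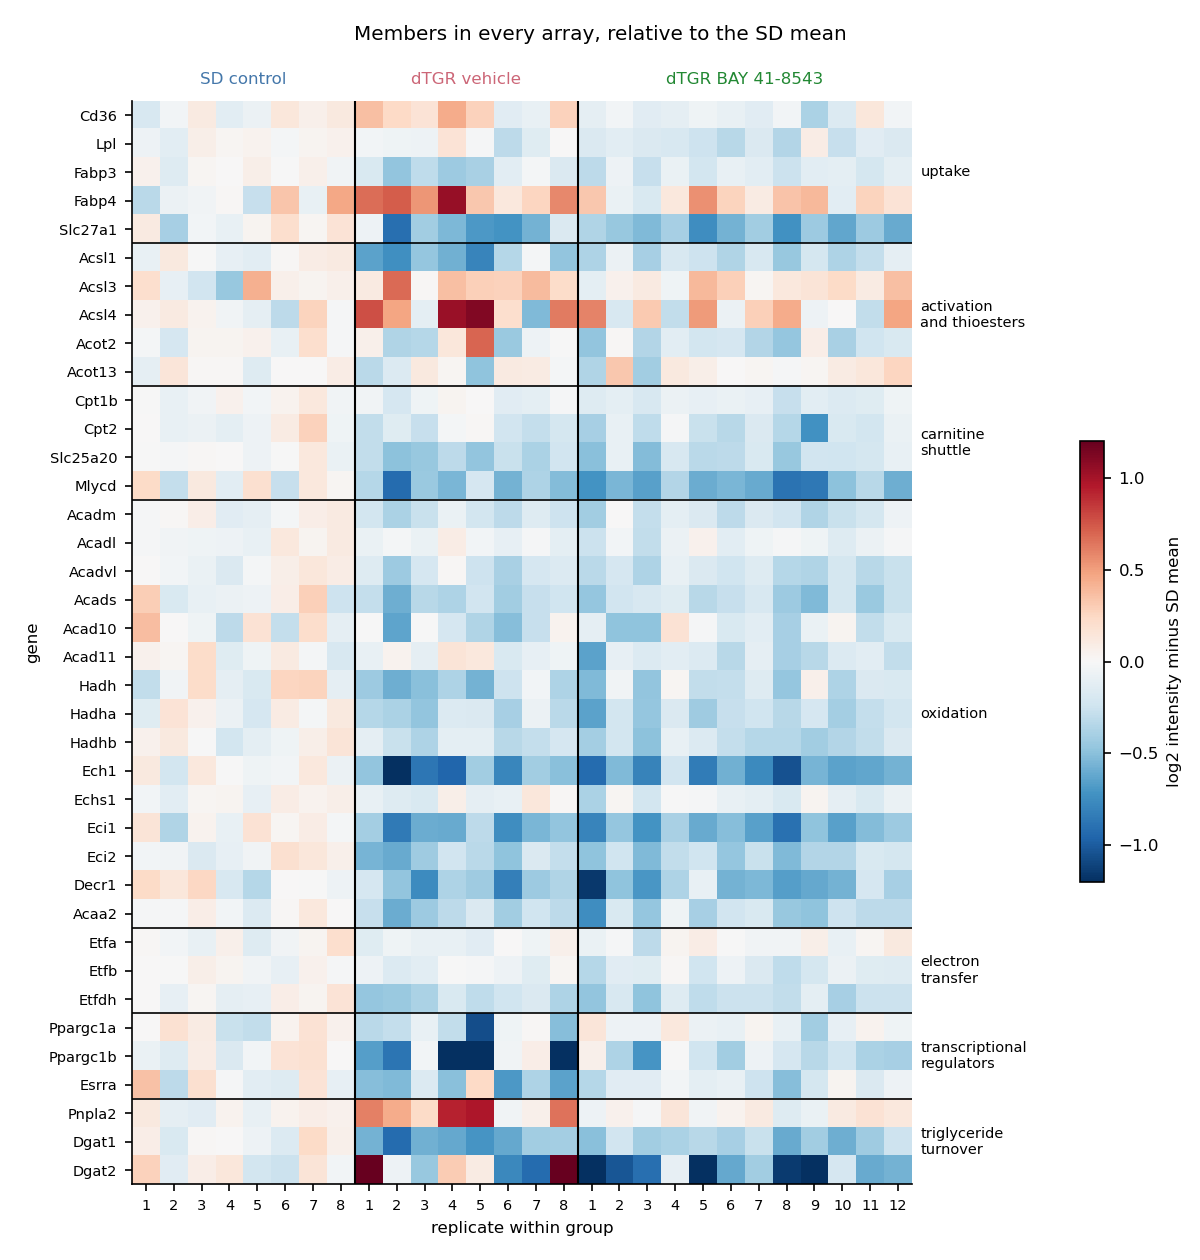
Each row is a measured gene, ordered by step, and each column an array. Colour gives log2 intensity minus the mean of the 8 SD arrays, from blue (lower) to red (higher), with values past the ends of the colour scale drawn at its ends. The oxidation genes are mostly blue across both dTGR groups, whereas Ppargc1b, Pnpla2 and Dgat2 differ among the 8 vehicle arrays.

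Uptake was mixed. Slc27a1, fatty acid transport protein 1, fell by 0.51 on the log2 scale (SE 0.10, adjusted p = 0.000161), and Fabp3, the fatty acid binding protein of heart muscle, fell by 0.26 (SE 0.06, adjusted p = 0.000566). Fabp4, a fatty acid binding protein of adipocytes and capillary endothelium, ran the other way. Its levels in SD were 12.40 at the lowest, 12.66 at the median and 13.18 at the highest, and in vehicle dTGR 12.84, 13.27 and 13.77. The ranges overlapped, all 8 vehicle arrays lay above the SD mean, and the gene rose by 0.53 ± 0.12 (SE, adjusted p = 0.00114).

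Cd36, the main fatty acid translocase of the cardiomyocyte, stood at 14.54, 14.75 and 14.87 (lowest, median, highest) in SD and at 14.60, 14.99 and 15.18 in vehicle dTGR. The 2 lowest vehicle arrays were replicates 6 (14.60) and 7 (14.65), inside the SD range. The difference of 0.19 ± 0.07 missed the threshold (adjusted p = 0.0505), and without those replicates it was 0.29 with adjusted p = 0.000568. Cd36 also passed the threshold when single arrays were left out, namely SD replicate 3, 6 or 8, vehicle replicate 6 or 7, or treated replicate 9 or 11, and its adjusted p over all 40 alternatives ran from 0.000568 to 0.167. Lpl, lipoprotein lipase, differed by -0.06 ± 0.06 (adjusted p = 0.533).

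Among the enzymes that activate fatty acids, Acsl1, the long-chain acyl-CoA synthetase that predominates in heart, fell. SD arrays held 14.60, 14.73 and 14.85 (lowest, median, highest) and vehicle arrays 13.93, 14.20 and 14.70. The highest vehicle array, replicate 7 at 14.70, was the only one inside the SD range, and the difference was -0.51 ± 0.08 (adjusted p = 9.68e-06). Acsl3, an acyl-CoA synthetase of the endoplasmic reticulum and lipid droplets, rose by 0.29 ± 0.10 (adjusted p = 0.0389). That call was lost in 10 of 40 alternatives, with adjusted p from 0.0521 to 0.108, among them the fits without SD replicate 2, 3 or 4, without vehicle replicate 2, 4, 5 or 7, and without vehicle replicates 6 and 7 together (0.28, adjusted p = 0.0738). Acsl4, which prefers arachidonic acid, differed by 0.45 ± 0.18 (adjusted p = 0.0687). Its vehicle values ran from 8.59 in replicate 7 to 10.23 in replicate 5, against 8.80 to 9.39 in SD, and it was called higher without vehicle replicate 3, without replicate 7, or without replicates 6 and 7 together (0.65, adjusted p = 0.00287). The acyl-CoA thioesterase genes Acot2 (-0.04 ± 0.11, adjusted p = 0.848) and Acot13 (-0.08 ± 0.09, adjusted p = 0.594) were not called.

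In the carnitine shuttle 2 of 4 measured genes fell. Slc25a20, the carnitine-acylcarnitine translocase of the inner membrane, held 12.82, 12.90 and 13.04 (lowest, median, highest) in SD and 12.41, 12.56 and 12.68 in vehicle dTGR. The ranges did not overlap, and the difference was -0.36 ± 0.06 (adjusted p = 3.2e-05). Mlycd, malonyl-CoA decarboxylase, removes the malonyl-CoA that inhibits carnitine palmitoyltransferase 1. It held 10.96, 11.31 and 11.47 in SD and 10.32, 10.76 and 11.05 in vehicle dTGR, with 1 vehicle array, replicate 5 at 11.05, above the lowest SD array. The difference was -0.49 ± 0.09 (adjusted p = 0.00022). The palmitoyltransferases themselves moved less, with differences of -0.07 ± 0.04 for Cpt1b, the muscle form on the outer membrane (adjusted p = 0.278), and -0.18 ± 0.08 for Cpt2 on the inner membrane (adjusted p = 0.0833). Cpt2 was called lower without vehicle replicate 5 or treated replicate 9, after repeated quantile normalization and with arrays centred on cardiomyocyte markers, with adjusted p down to 0.0145. Centred on those markers Cpt1b was called lower too (adjusted p = 0.0108). This centring uses the mean of 8 markers, among them Csrp3, which was itself 0.78 higher in vehicle dTGR than in SD. The median difference of the 8 was -0.02, with 5 of them below 0. Calls made only with this centring, here and below, therefore lean on that marker.

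All 15 measured genes of the oxidation step had a negative difference, from -0.70 to -0.02 with a median of -0.29, and 11 of them fell. Ech1, which encodes delta(3,5)-delta(2,4)-dienoyl-CoA isomerase, an auxiliary enzyme for unsaturated fatty acids, moved furthest. SD arrays held 14.08, 14.28 and 14.42 (lowest, median, highest), vehicle arrays 13.07, 13.65 and 13.88 and treated arrays 13.25, 13.66 and 14.06. No vehicle array and no treated array reached the lowest SD array. Its level fell by 38.6% in vehicle dTGR, a log2 difference of -0.70 ± 0.10 (adjusted p = 5.26e-06).

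Eci1, an enoyl-CoA delta isomerase that also handles unsaturated chains, came next. SD arrays held 12.61, 13.00 and 13.14, vehicle arrays 12.12, 12.40 and 12.65 and treated arrays 12.08, 12.41 and 12.58. The single overlap between vehicle and SD lay between vehicle replicate 5 (12.65) and the lowest SD array (12.61), and the difference was -0.57 ± 0.08 (adjusted p = 2.76e-06). The second enoyl-CoA isomerase gene, Eci2 (-0.39 ± 0.07, adjusted p = 5.28e-05), and Decr1, the dienoyl-CoA reductase (-0.48 ± 0.11, adjusted p = 0.00177), also fell. All 4 measured genes for the auxiliary enzymes of unsaturated chains were therefore lower, and every vehicle array lay below the SD mean in each.

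Of the acyl-CoA dehydrogenases, which catalyse the first step of each cycle, Acads for short chains (-0.34 ± 0.07, adjusted p = 0.000742), Acadm for medium chains (-0.24 ± 0.05, adjusted p = 0.00145) and Acadvl for very long chains (-0.22 ± 0.06, adjusted p = 0.00356) fell. Acadl for long chains did not pass the test (-0.04 ± 0.05, 95% interval -0.14 to 0.05, adjusted p = 0.566), nor did Acad10 (-0.25 ± 0.12, adjusted p = 0.135) or Acad11 (-0.02 ± 0.09, adjusted p = 0.885). The later steps of the cycle were lower with the exception of Echs1. Hadha (-0.29 ± 0.07, adjusted p = 0.00131) and Hadhb (-0.23 ± 0.06, adjusted p = 0.00431), the alpha and beta subunits of the mitochondrial trifunctional protein, fell, as did Hadh, the short-chain hydroxyacyl-CoA dehydrogenase (-0.39 ± 0.09, adjusted p = 0.00197), and Acaa2, the matrix thiolase (-0.35 ± 0.07, adjusted p = 0.000465). Echs1, the short-chain enoyl-CoA hydratase, differed by -0.05 ± 0.06 (adjusted p = 0.581).

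Hadha and Hadhb are neighbours that point away from each other, so their promoters are shown as the sequence that both genes share. In RefSeq's GRCr8 assembly of the rat genome their annotated starts lie 301 bases apart on chromosome 6. Windows from 250 bases before to 50 bases after each start overlap by 200 bases, chr6:31907551-31907750. In the Hadha window (chr6:31907551-31907850, plus strand) capitals mark the shared stretch. In the Hadhb window (chr6:31907451-31907750, minus strand) capitals mark the 1 match, on the opposite strand, to AAGGTCA, a motif bound by estrogen-related receptors. That match lies at positions 43 to 49, after the Hadhb start and outside the stretch shared with Hadha.
Hadha: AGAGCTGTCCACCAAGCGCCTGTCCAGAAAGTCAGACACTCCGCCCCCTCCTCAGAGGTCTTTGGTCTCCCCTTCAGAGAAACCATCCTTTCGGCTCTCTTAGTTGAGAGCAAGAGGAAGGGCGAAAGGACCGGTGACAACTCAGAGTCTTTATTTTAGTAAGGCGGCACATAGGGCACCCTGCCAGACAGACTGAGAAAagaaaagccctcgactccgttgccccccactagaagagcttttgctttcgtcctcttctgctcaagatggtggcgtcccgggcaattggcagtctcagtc
Hadhb: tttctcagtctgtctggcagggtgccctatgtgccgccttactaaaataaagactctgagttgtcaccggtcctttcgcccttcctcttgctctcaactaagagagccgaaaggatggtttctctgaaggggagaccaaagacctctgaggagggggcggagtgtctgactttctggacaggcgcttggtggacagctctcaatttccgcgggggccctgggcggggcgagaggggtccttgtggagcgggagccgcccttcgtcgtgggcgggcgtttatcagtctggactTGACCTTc

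RefSeq's promoter table held such a window for 29 of the 38 measured genes. On either strand AAGGTCA was in 2 of the 29 (Hadhb and Acad11) and in 4.61% of all 33469 rat promoters in the table. Its extended form TCAAGGTCA was in 0 of 29 and in 0.433% of all, and a direct repeat of AGGTCA after 1 base, the arrangement bound by PPAR with RXR, in 0 of 29 and 0.0538%. GCGCATGC, the core of the NRF1 motif, was in 2 of 29 (Esrra and Acad10) and in 2.47% of all. A match is a description of these letters in these windows and says nothing of binding.

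In the transfer of electrons to the respiratory chain 1 of 3 genes fell. Etfdh encodes the flavoprotein dehydrogenase that passes electrons to ubiquinone. SD arrays held 14.05, 14.17 and 14.33 (lowest, median, highest), vehicle arrays 13.69, 13.82 and 13.98 and treated arrays 13.67, 13.90 and 14.04. Both dTGR groups lay wholly below the SD arrays, and the vehicle difference was -0.32 ± 0.06 (adjusted p = 7.34e-05). The subunits of the electron transfer flavoprotein itself were not called, with Etfa at -0.06 ± 0.05 (adjusted p = 0.45) and Etfb at -0.07 ± 0.05 (adjusted p = 0.291). With arrays centred on cardiomyocyte markers, Etfb was called lower (adjusted p = 0.0248).

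All 3 transcriptional regulators fell in vehicle dTGR. Ppargc1b, which encodes PGC-1 beta, held 11.75, 11.91 and 12.11 (lowest, median, highest) in SD, 10.05, 11.16 and 12.01 in vehicle dTGR and 11.21, 11.64 and 11.98 in treated dTGR. In vehicle replicates 3 (11.89), 6 (11.88) and 7 (12.01) it lay inside the SD range, and in the other 5 it was between 10.05 and 11.27, below every SD array. The difference of -0.80 ± 0.20 (adjusted p = 0.00262) was the largest of the 38 in this comparison, and it was -1.07 without vehicle replicates 6 and 7. Esrra, the estrogen-related receptor alpha, differed by -0.40 ± 0.11 (adjusted p = 0.00677). Ppargc1a, which encodes PGC-1 alpha, differed by -0.33 ± 0.11 (adjusted p = 0.0228), and its call was lost without vehicle replicate 5, the lowest array at 11.53, when the fit held only the 2 groups compared and with arrays centred on mitochondrial markers (adjusted p from 0.0553 to 0.0968).

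Esrra is itself a regulator in this set, and its promoter window is shown because it held an NRF1 core. In GRCr8 the window is chr1:213543256-213543555 on the minus strand, and capitals mark the match to GCGCATGC on the opposite strand, at positions -115 to -108 from the start.
Esrra: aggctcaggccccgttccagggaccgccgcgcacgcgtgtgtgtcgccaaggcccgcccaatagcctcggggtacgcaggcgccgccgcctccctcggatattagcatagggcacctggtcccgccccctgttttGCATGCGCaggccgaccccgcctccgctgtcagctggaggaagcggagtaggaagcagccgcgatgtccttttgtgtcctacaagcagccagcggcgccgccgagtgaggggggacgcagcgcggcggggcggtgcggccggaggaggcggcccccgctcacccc

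Triglyceride turnover split in direction. Dgat1, which adds the last acyl chain of triglyceride, held 11.94, 12.14 and 12.35 (lowest, median, highest) in SD, 11.20, 11.53 and 11.71 in vehicle dTGR and 11.52, 11.71 and 11.89 in treated dTGR. Both dTGR groups lay wholly below SD, and the vehicle difference was -0.60 ± 0.07 (adjusted p = 1.91e-07). Pnpla2, the adipose triglyceride lipase that starts the breakdown of stored fat, held 13.55, 13.72 and 13.81 in SD and 13.64, 14.21 and 14.65 in vehicle dTGR. It rose by 0.48 ± 0.10 (adjusted p = 0.000566), with vehicle replicates 6 (13.64) and 7 (13.74) inside the SD range and the other 6 above it. Dgat2, a second triglyceride-forming acyltransferase, ranged from 8.99 to 11.59 in vehicle dTGR against 9.66 to 10.19 in SD, and its difference of 0.15 ± 0.26 was not called (adjusted p = 0.754).

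**Figure D2:**
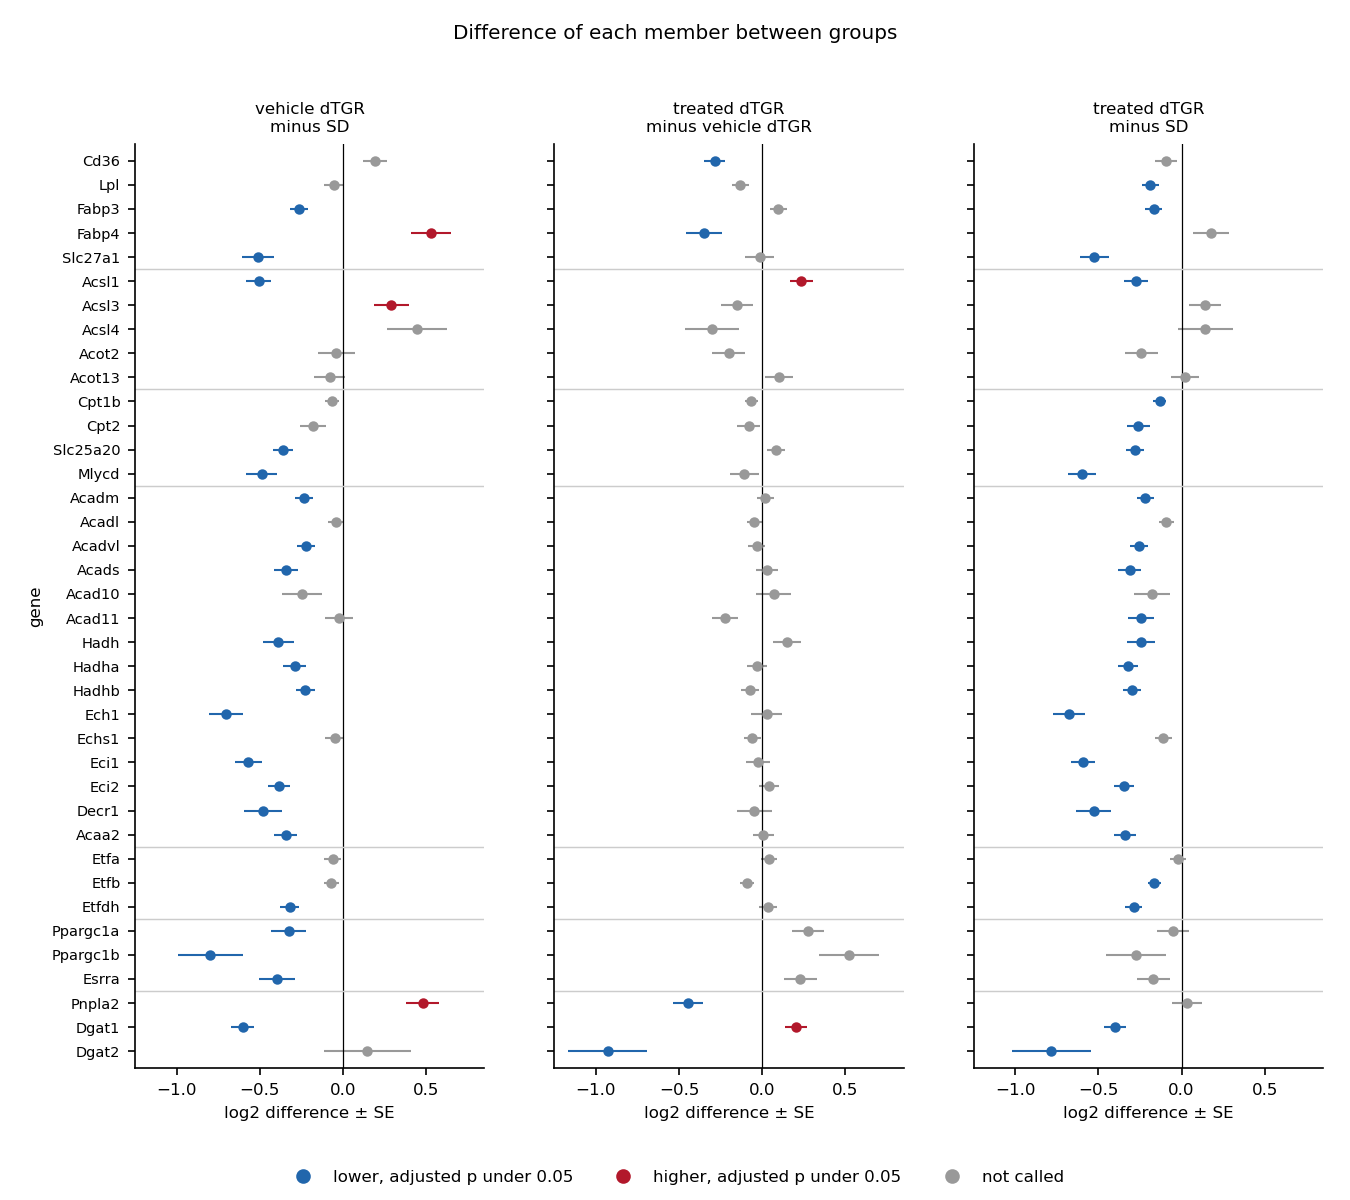
Points give the log2 difference of each measured gene and bars its standard error, for vehicle dTGR minus SD, treated dTGR minus vehicle dTGR and treated dTGR minus SD. Blue and red mark genes called lower and higher at an adjusted p under 0.05, and grey marks genes not called. In the middle panel 6 of 38 genes are coloured, against 24 in each of the outer panels.

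The second comparison asked what BAY 41-8543 changed in the transgenic heart. Treated dTGR differed from vehicle dTGR in 6 of the 38 genes, against 9.79% of all tested genes. Of these 4 were lower and 2 higher, where 4.42% of all genes were called lower and 5.37% higher. With arrays centred on mitochondrial markers the split was 3 lower and 4 higher, where 1186 of all 11493 genes were called, 33.1% of them lower. The called genes were those of uptake, activation and fat storage: Dgat2, Pnpla2, Fabp4 and Cd36 fell, and Acsl1 and Dgat1 rose. None of the 15 oxidation genes, the 4 shuttle genes or the 3 electron transfer genes passed the test. The arrays of both groups overlapped in every one of the 38 genes, where 0% of all genes lay wholly lower and 0.0609% wholly higher. The median difference was -0.03 over the 38 genes and 0.0097 over all genes. With the filter at the median of all probes, 1202 of 9161 genes were called between treated and vehicle dTGR.

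Dgat2 had the largest difference. Treated arrays held 8.56, 9.16 and 9.81 (lowest, median, highest) and vehicle arrays 8.99, 9.93 and 11.59. Vehicle replicates 1 (11.59) and 8 (11.21) stood highest and replicates 7 (8.99), 6 (9.14) and 3 (9.46) lowest. The difference was -0.93 ± 0.24 (adjusted p = 0.0117), with all 12 treated arrays below the vehicle mean, and -1.26 without vehicle replicates 6 and 7 (adjusted p = 9.77e-05). Pnpla2 held 13.53, 13.73 and 13.86 in treated dTGR, beside 13.55, 13.72 and 13.81 in SD, and its difference from vehicle was -0.45 ± 0.09 (adjusted p = 0.00252). Treated arrays of Pnpla2 overlapped only with the vehicle replicates at 13.64 and 13.74.

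Cd36 held 14.35, 14.64 and 14.87 in treated dTGR, all 12 arrays below the vehicle mean, and fell by 0.29 on the log2 scale (SE 0.07, adjusted p = 0.00513). Fabp4 held 12.54, 12.93 and 13.27 in treated dTGR and fell by 0.35 (SE 0.11, adjusted p = 0.0353). The Cd36, Pnpla2 and Dgat2 calls were kept in all 40 alternatives. The Fabp4 call was lost in 12, with adjusted p from 0.0507 to 0.117, among them the fits without vehicle replicate 1, 2, 4 or 8 or without treated replicate 2, 3, 4, 7 or 10.

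The genes that rose did so by less. Acsl1 held 14.27, 14.46 and 14.66 in treated dTGR and differed from vehicle by 0.24 ± 0.07 (adjusted p = 0.0295). Dgat1 differed from vehicle by 0.20 ± 0.06 (adjusted p = 0.0428). In both genes all 12 treated arrays exceeded the vehicle mean. The Acsl1 call was lost in 7 of 40 alternatives (adjusted p from 0.0521 to 0.0914), among them the fits without vehicle replicate 1, 2, 4 or 5 or treated replicate 2. The Dgat1 call was lost in 17 (adjusted p from 0.051 to 0.121), among them the fits without vehicle replicate 1, 2, 4 or 5 or treated replicate 2, 3, 4, 5, 6, 7, 9 or 12.

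**Figure D3:**
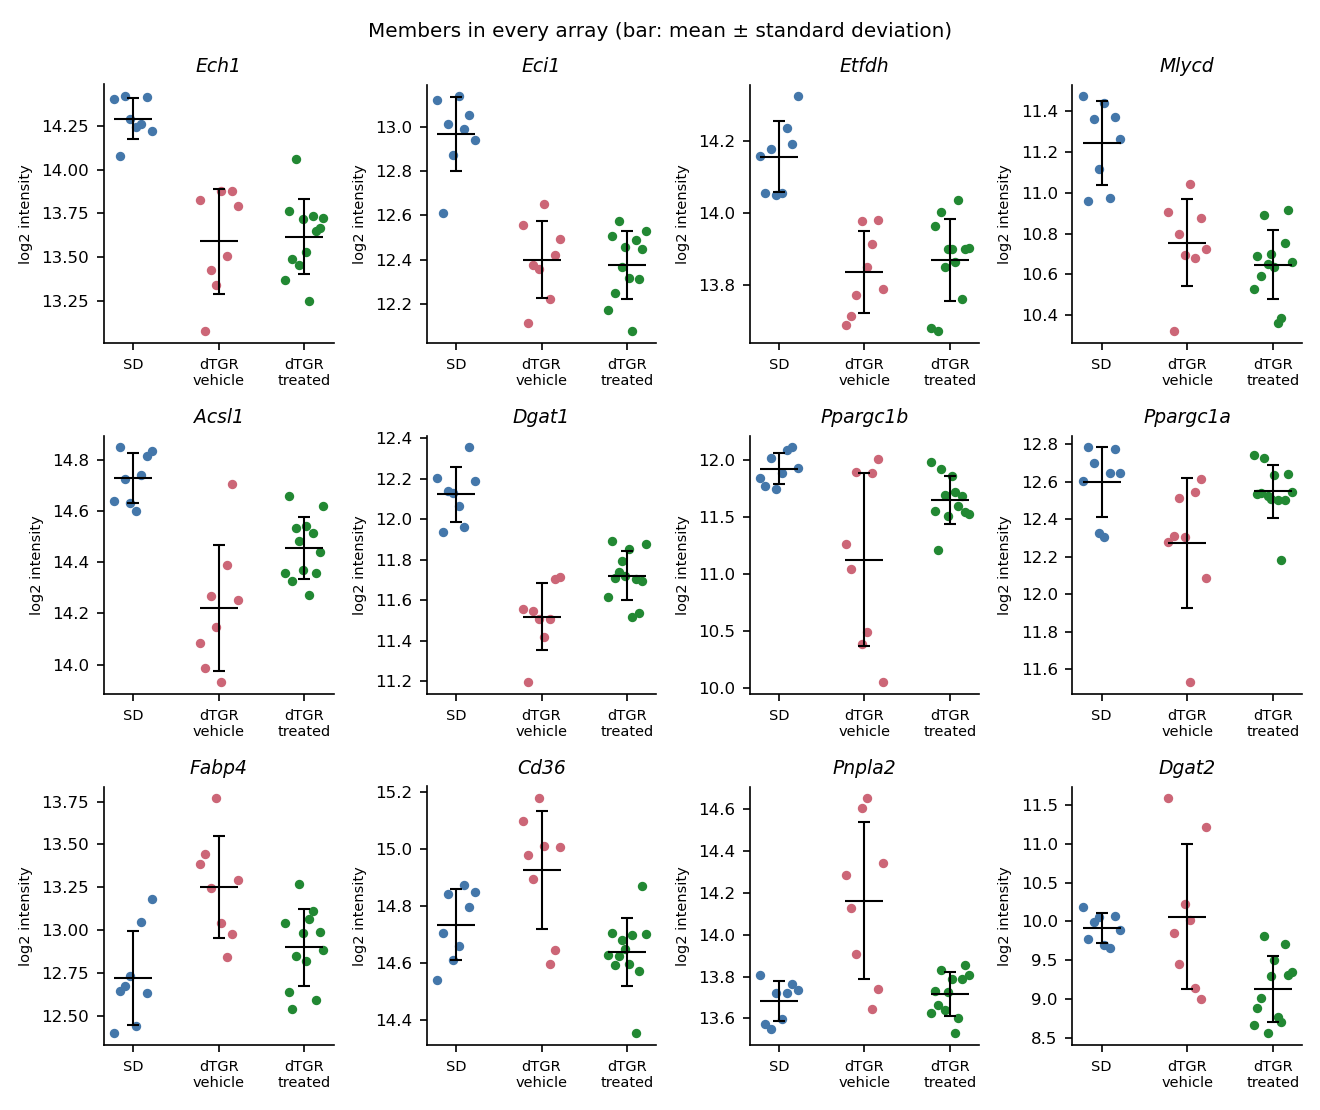
Each point is an array, in log2 intensity, for 12 of the measured genes in SD, vehicle dTGR and treated dTGR, and bars give the mean and standard deviation. Axes are scaled to each gene and do not start at 0. Ech1, Eci1, Etfdh and Mlycd sit at like levels in both dTGR groups, whereas the vehicle arrays of Ppargc1b, Pnpla2 and Dgat2 are spread widely.

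The regulators all had a positive difference that missed the threshold. For Ppargc1b it was 0.52 ± 0.18 (95% interval 0.16 to 0.89, adjusted p = 0.0594), for Ppargc1a 0.28 ± 0.10 (0.08 to 0.47, adjusted p = 0.066) and for Esrra 0.23 ± 0.10 (0.02 to 0.43, adjusted p = 0.155). Ppargc1b was called higher without vehicle replicate 3, 6 or 7 or treated replicate 3, and Ppargc1a without vehicle replicate 3, 6 or 7 or treated replicate 9. Esrra was called without vehicle replicate 5, its highest vehicle array at 10.44 (adjusted p = 0.0257). Without vehicle replicates 6 and 7 together, Ppargc1b differed by 0.79 (adjusted p = 0.000434) and Ppargc1a by 0.38 (adjusted p = 0.00595). In that fit 7 of the 38 genes were lower and 5 higher, where 2066 of all 11500 genes were called, 44.4% of them lower. The further calls were Lpl (-0.19, adjusted p = 0.0063), Acsl4 (-0.51, adjusted p = 0.0173), Acad11 (-0.26, adjusted p = 0.0345) and Fabp3 (0.16, adjusted p = 0.0202). Leaving out 1 array at a time, Lpl was called without vehicle replicate 6 or treated replicate 9, Acsl4 without vehicle replicate 7 and Acad11 without vehicle replicate 6.

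For the oxidation genes the treated and vehicle groups differed by -0.22 to 0.15, with a median of -0.02. The interval for Ech1 was -0.16 to 0.22 around 0.03, that for Eci1 -0.17 to 0.12 around -0.02 and that for Hadha -0.16 to 0.09 around -0.03. Acad11 had the most negative value (-0.22 ± 0.08, adjusted p = 0.0674) and Hadh the most positive (0.15 ± 0.08, adjusted p = 0.315). In the shuttle the differences were 0.08 ± 0.06 for Slc25a20, -0.07 ± 0.04 for Cpt1b, -0.08 ± 0.07 for Cpt2 and -0.11 ± 0.09 for Mlycd, with adjusted p from 0.305 to 0.544. The electron transfer genes differed by -0.09 for Etfb, 0.03 for Etfdh and 0.04 for Etfa, with adjusted p of 0.166, 0.757 and 0.684. Of the remaining genes of uptake and activation, Lpl (-0.13), Fabp3 (0.10), Slc27a1 (-0.02), Acsl3 (-0.15), Acsl4 (-0.30), Acot2 (-0.20) and Acot13 (0.10) were not called, with adjusted p of 0.098 or more.

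Treated dTGR were then set against SD, from which they differed in genotype, gavage and compound together. In treated dTGR 24 of the 38 genes were lower than in SD and 0 higher, where 7.87% of all tested genes were called lower and 9.54% higher, 17.4% in all. The median difference was -0.24 for the 38 genes and 0.014 for all genes. With the filter at the median of all probes, 2054 of 9161 genes were called between treated dTGR and SD. For 7 genes (Slc25a20, Mlycd, Ech1, Eci1, Eci2, Etfdh and Dgat1) every treated array lay below every SD array, where 1.19% of all genes did so, and 0 lay wholly above, where 1.81% did. The 3 comparisons share groups with one another, so their differences are given side by side and are not independent.

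Of the beta oxidation genes, which form the largest step of the set, 12 of 15 were lower with a median of -0.30, beside 4 of 4 in the carnitine shuttle. Ech1 differed by -0.68 ± 0.09 (adjusted p = 2.95e-06), beside -0.70 in vehicle dTGR. Eci1 differed by -0.59 ± 0.07 (adjusted p = 3.84e-07), beside -0.57. Decr1 (-0.53, adjusted p = 0.000354), Eci2 (-0.35, adjusted p = 9.79e-05), Acaa2 (-0.34, adjusted p = 0.000294), Hadha (-0.32, adjusted p = 0.000211), Acads (-0.31, adjusted p = 0.00109), Hadhb (-0.30, adjusted p = 0.000124), Acadvl (-0.26, adjusted p = 0.000507) and Acadm (-0.22, adjusted p = 0.00198) were lower as well. The Acadm call was lost with arrays centred on mitochondrial markers (-0.10, adjusted p = 0.106). Acad11 (-0.25, adjusted p = 0.0251) lost its call without SD replicate 3 or 6 and with arrays centred on mitochondrial markers (adjusted p from 0.0512 to 0.215). Hadh (-0.24, adjusted p = 0.0432) lost its call in 15 of 40 alternatives, among them the fits without SD replicate 2, 3, 6 or 7 or treated replicate 1, 3, 5, 6, 8 or 10 (adjusted p over the 15 from 0.0513 to 0.264). Acadl (-0.09), Acad10 (-0.18) and Echs1 (-0.11) were not called, though Acadl and Echs1 were with arrays centred on cardiomyocyte markers (adjusted p = 0.0342 and 0.0299).

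All 4 shuttle genes were lower in treated dTGR, and 2 of them, Cpt1b and Cpt2, lost that call with arrays centred on mitochondrial markers (-0.02 and -0.15, adjusted p = 0.774 and 0.101). Mlycd held 10.36, 10.65 and 10.91 (lowest, median, highest) in treated dTGR, wholly below the lowest SD array at 10.96. The difference was -0.60 ± 0.09 (adjusted p = 5.8e-06), the largest of the step, beside -0.49 in vehicle dTGR. Slc25a20 (-0.28 ± 0.06, adjusted p = 0.0004), Cpt2 (-0.26 ± 0.07, adjusted p = 0.00744) and Cpt1b (-0.13 ± 0.04, adjusted p = 0.0126) were lower too. In electron transfer Etfdh (-0.29 ± 0.05, adjusted p = 0.000135) and Etfb (-0.16 ± 0.04, adjusted p = 0.00505) were lower, and Etfa was at -0.02 ± 0.05. The Etfb call was lost with arrays centred on mitochondrial markers (-0.05, adjusted p = 0.373).

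In uptake, Slc27a1 (-0.52 ± 0.09, adjusted p = 4.69e-05), Lpl (-0.19 ± 0.05, adjusted p = 0.00851) and Fabp3 (-0.17 ± 0.05, adjusted p = 0.0191) were lower than in SD, while Cd36 (-0.10 ± 0.07, 95% interval -0.23 to 0.04) and Fabp4 (0.18 ± 0.11, interval -0.04 to 0.40) were not called. With arrays centred on mitochondrial markers the Lpl and Fabp3 calls were lost (-0.07 and -0.05, adjusted p = 0.333 and 0.472). Acsl1 differed from SD by -0.27 ± 0.07 (adjusted p = 0.00588), and its mean lay between those of SD and vehicle dTGR. That call too was lost with mitochondrial centring (-0.16, adjusted p = 0.0993). Acsl3 (0.14), Acsl4 (0.14), Acot2 (-0.24) and Acot13 (0.02) were not called. Acot2 was called lower in 4 of 40 alternatives, among them the fit without vehicle replicate 5, its highest vehicle array at 13.28 (adjusted p over all alternatives from 0.00952 to 0.364). The regulators Ppargc1b (-0.27 ± 0.18, adjusted p = 0.337), Esrra (-0.17 ± 0.10, adjusted p = 0.275) and Ppargc1a (-0.05 ± 0.10, adjusted p = 0.798) were not called, Ppargc1b being called lower when the fit held only the 2 groups compared (adjusted p = 0.0116). Dgat1 stayed lower (-0.40 ± 0.06, adjusted p = 3e-05), Dgat2 was lower (-0.78 ± 0.24, adjusted p = 0.0201), and Pnpla2 was at 0.03 ± 0.09.

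Placed by their 3 calls, 16 genes were lower than SD in both dTGR groups with no call between those groups: Fabp3, Slc27a1, Slc25a20, Mlycd, Etfdh and 11 oxidation genes. Another 5 (Lpl, Cpt1b, Cpt2, Acad11 and Etfb) passed the test in treated dTGR against SD and in no other comparison, and none of the 5 was called between the dTGR groups. The 3 regulators were lower than SD in vehicle dTGR and called in no other comparison. Fabp4 and Pnpla2 were higher in vehicle dTGR and lower with treatment, and Acsl1 and Dgat1 were lower in vehicle dTGR, higher with treatment and still lower than SD. Acsl3 was called only in vehicle dTGR against SD, Cd36 only with treatment, and Dgat2 with treatment and in treated dTGR against SD. The other 7 (Acsl4, Acot2, Acot13, Acadl, Acad10, Echs1 and Etfa) were called in no comparison.

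**Figure D4:**
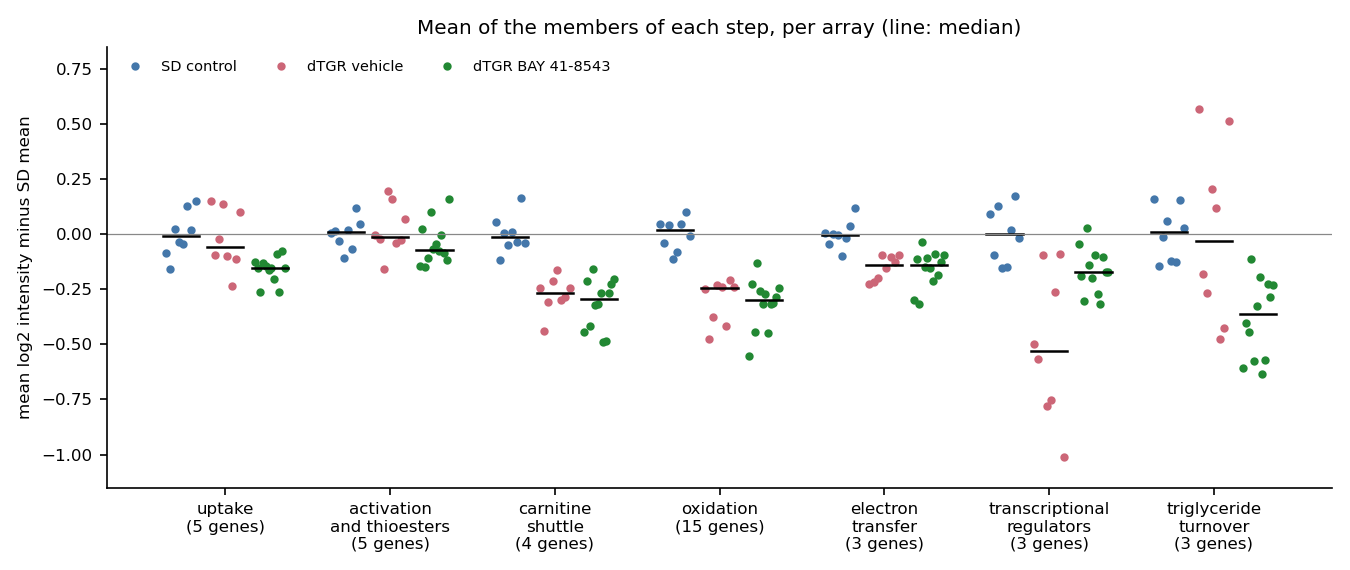
Each point is the mean, in 1 array, of the genes of a step after subtracting each gene's SD mean (log2), and lines mark group medians. For oxidation every vehicle and treated array lies below every SD array, while regulators and triglyceride turnover spread across the vehicle arrays.

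Averaged per array, the 15 oxidation genes lay between -0.11 and 0.10 of the SD mean in SD, between -0.48 and -0.21 in vehicle dTGR and between -0.55 and -0.13 in treated dTGR. No array of either dTGR group reached the SD range. The 3 regulators lay between -0.15 and 0.17 in SD, between -1.01 and -0.09 in vehicle dTGR and between -0.32 and 0.03 in treated dTGR. Triglyceride turnover ranged from -0.48 to 0.57 in vehicle dTGR and from -0.64 to -0.11 in treated dTGR.

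The spread within groups also differed among the genes. The median standard deviation of the 38 genes was 0.124 in SD, 0.170 in vehicle dTGR and 0.140 in treated dTGR, where the medians over all genes were 0.247, 0.296 and 0.234. Dgat2 was the most variable in both dTGR groups, at 0.93 and 0.42. The same vehicle animals stood at the ends of several genes. Replicates 3, 6 and 7 held the 3 highest values of Ppargc1b and Acsl1 and the 3 lowest of Dgat2 and Pnpla2. In Ech1, replicate 7 was the highest vehicle array at 13.88, while replicates 3 (13.43) and 6 (13.51) lay inside the vehicle range, which began at 13.07. Replicates 3, 6 and 7 are the vehicle arrays that lay nearest the treated group on the first principal component.

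Genes outside the set that act on the same pathway were taken from 8 lists chosen by name. Beside their counts stand the shares of all genes called lower and higher. These were 11.7% and 12.1% in vehicle dTGR against SD, 4.42% and 5.37% with treatment, and 7.87% and 9.54% in treated dTGR against SD. The lists are short and were not tested as sets. Of 10 measured nuclear receptors and cofactors, 4 were lower and 0 higher in vehicle dTGR than in SD, and 3 lower and 0 higher in treated dTGR. Treatment lowered 1 and raised 2. Rxrg, the RXR gamma partner receptor, averaged 12.33 ± 0.07 (standard deviation, n = 8) in SD and 11.19 ± 0.47 (n = 8) in vehicle dTGR, with no overlap between arrays and a difference of -1.13 ± 0.13 (adjusted p = 1.53e-07). With treatment it rose by 0.44 (adjusted p = 0.0167), and it was still -0.69 from SD (adjusted p = 8.12e-05). Rxra differed by -0.59 in vehicle dTGR and -0.48 in treated dTGR (adjusted p = 1.23e-06 and 8.01e-06). Ppara, the PPAR alpha gene, is named here after its values were seen. It held 12.98, 13.17 and 13.32 (lowest, median, highest) in SD, 12.26, 12.80 and 12.95 in vehicle dTGR and 12.96, 13.06 and 13.24 in treated dTGR. Vehicle arrays lay wholly below SD (-0.46 ± 0.08, adjusted p = 3.38e-05). Every treated array lay above every vehicle array, and the gene rose by 0.37 ± 0.07 (adjusted p = 0.00125). The treated arrays of Lpin1, a coactivator and phosphatidate phosphatase gene, were lower than vehicle (-0.39, adjusted p = 0.0263) and than SD (-0.40, adjusted p = 0.0111).

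Of 8 other genes of uptake and lipase control, 1 was lower and 1 higher in vehicle dTGR, 2 lower and 1 higher with treatment, and 1 higher in treated dTGR than in SD. In vehicle dTGR, 1 of 8 each way is near the share over all genes. Angptl4, an inhibitor of lipoprotein lipase, held 5.35, 6.54 and 7.70 (lowest, median, highest) in SD, 6.52, 9.58 and 10.62 in vehicle dTGR and 4.53, 5.98 and 7.60 in treated dTGR. Its 3 lowest vehicle arrays lay inside the SD range, and it rose by 2.24 ± 0.52 in vehicle dTGR (adjusted p = 0.00142). Between treated and vehicle dTGR it differed by -2.60 ± 0.47 (adjusted p = 0.000915), with all 12 treated arrays below the vehicle mean. The lowest SD and treated arrays of Angptl4 lay under 5.65, the level under which probes were set aside. Signal in those groups was dim, which limits how far the size of both differences can be read. Vldlr, the receptor for very low density lipoprotein, fell by 0.34 on the log2 scale in vehicle dTGR and Gpihbp1, the capillary anchor of lipoprotein lipase, fell by 0.96 with treatment (adjusted p = 0.0011 and 0.00759). Slc27a4 was higher in treated dTGR than in SD (0.22, adjusted p = 0.0455).

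The other mitochondrial and peroxisomal lists ran mostly downward against SD. Of 11 genes of peroxisomal and auxiliary oxidation, 5 fell in vehicle dTGR and 6 were lower in treated dTGR, with 0 higher in either. Acaa1a, a peroxisomal thiolase, differed by -0.71 ± 0.10 and -0.72 ± 0.09 (adjusted p = 2.15e-06 and 4.95e-07), and Decr2 by -0.62 in vehicle dTGR (adjusted p = 0.00216). Pex11a, a peroxisome division gene, fell with treatment by 0.56 (adjusted p = 0.014) and was the only one of the 11 called there. Of 3 other carnitine genes, Slc22a5, the plasma membrane carnitine transporter, fell by 0.46 in vehicle dTGR (adjusted p = 0.00108) and was -0.37 from SD in treated dTGR (adjusted p = 0.00482). Crot fell by 0.23 in vehicle dTGR (adjusted p = 0.0294), and Cpt1a, the liver form of palmitoyltransferase 1, fell by 0.41 with treatment (adjusted p = 0.00553). Of 4 other genes of activation, only Acss1, a mitochondrial acetyl-CoA synthetase, was called, at -0.46 in vehicle and -0.44 in treated dTGR (adjusted p = 4.14e-05 and 3.36e-05).

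**Figure D5:**
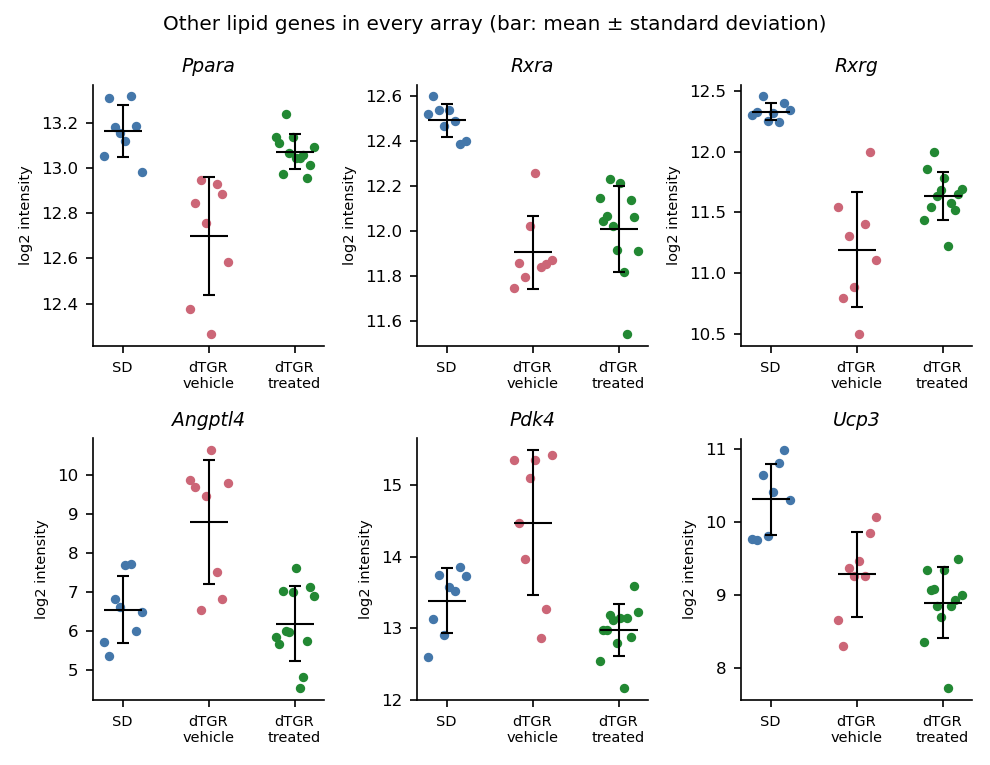
Each point is an array, in log2 intensity, for Ppara, Rxra, Rxrg, Angptl4, Pdk4 and Ucp3 in SD, vehicle dTGR and treated dTGR, and bars give the mean and standard deviation. Axes are scaled to each gene and do not start at 0. The Ppara arrays of treated dTGR (12.96 to 13.24) lie above all vehicle arrays.

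The lists on fat storage, fuel choice and synthesis held calls in both directions. Among 6 genes of uncoupling and fuel choice, Pdk4, the kinase that shuts off pyruvate dehydrogenase, held 12.60, 13.55 and 13.86 (lowest, median, highest) in SD, 12.86, 14.79 and 15.43 in vehicle dTGR and 12.16, 13.05 and 13.59 in treated dTGR. It rose by 1.09 ± 0.28 in vehicle dTGR (adjusted p = 0.00427) and differed by -1.50 ± 0.26 between treated and vehicle dTGR (adjusted p = 0.000659). The uncoupling protein gene Ucp3 was lower in both dTGR groups, at -1.03 and -1.42 against SD (adjusted p = 0.00126 and 1.09e-05), and in treated dTGR its arrays did not overlap with SD. In that list 1 gene fell and 2 rose in vehicle dTGR, and 3 fell with treatment, among them Txnip (-0.51, adjusted p = 0.00263). Of 7 genes of droplets and triglyceride synthesis, 3 fell in vehicle dTGR, led by G0s2, the inhibitor of the lipase encoded by Pnpla2 (-1.01 ± 0.28, adjusted p = 0.00689), and G0s2 rose by 1.22 ± 0.25 with treatment (adjusted p = 0.00263). Of 8 synthesis genes, Elovl6 and Elovl1 rose in vehicle dTGR (1.07 and 0.16, adjusted p = 3.12e-05 and 0.037). With treatment Elovl6 fell by 0.67 and 3 rose, led by Fads2 (0.76 ± 0.17, adjusted p = 0.00443).

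Markers of what the tissue held were read beside these results. Their counts stand against the same shares of all genes as those of the other lists. The left ventricle showed its cardiomyocyte markers at summed intensities of 477240 to 499894 in SD, 493378 to 512672 in vehicle dTGR and 486351 to 504977 in treated dTGR. Of 8 such genes 2 were lower and 2 higher than SD in each dTGR group, Csrp3 at 0.78 and Ckm at -0.26 in vehicle dTGR. The 10 measured markers of mitochondrial content summed to 344773 to 369147 in SD, 321042 to 351802 in vehicle dTGR and 310061 to 347317 in treated dTGR. Of these 2 fell in vehicle dTGR and 5 in treated dTGR, with medians of -0.10 and -0.12, and Sdha moved furthest (-0.16 and -0.20). With arrays centred on those markers 20 of the 38 genes were lower and 5 higher in vehicle dTGR, and 15 lower and 1 higher in treated dTGR, both against SD. Of all 11493 genes, 2938 were then called in vehicle dTGR, 30.1% of them lower, and 2711 in treated dTGR, 15.8% of them lower.

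Endothelial markers had 0 of 8 lower and 2 higher in vehicle dTGR, Esam by 0.67 and Erg by 0.36, and 2 lower and 2 higher with treatment. Their sums were 35805 to 42757 in SD, 41917 to 46632 in vehicle dTGR and 39619 to 47758 in treated dTGR. Of 6 measured adipocyte markers none was called between vehicle dTGR and either other group, 1 (Cfd) was lower in treated dTGR than in SD, and Lep and Cidec lay under the filter level. The adipocyte sums, with Lep and Cidec included, were 711 to 2401, 638 to 1467 and 710 to 2629 in SD, vehicle and treated dTGR. Macrophage markers had 5 of 8 higher in vehicle dTGR, led by Lgals3 (1.38) and C1qb (1.24), and both fell with treatment. Adgre1, named after its values were seen, ran the other way, at -0.63 in vehicle dTGR against SD and 0.58 with treatment (adjusted p = 0.0095 and 0.0227). Their sums were 16581 to 26453, 20061 to 42118 and 16994 to 40208 in the same order. Of 7 fibroblast markers 1 was lower and 1 higher in vehicle dTGR, and 1 lower and 2 higher with treatment, with sums of 76757 to 91490, 79947 to 96324 and 76926 to 119552. Against SD, 2 of 3 erythroid and 3 of 4 mesothelial markers were lower in each dTGR group. The lower mesothelial markers were near the filter level of 5.65 in vehicle dTGR. Lrrn4 averaged 5.25 there, Upk3b 5.81 and Msln 6.12, so the size of their fall is uncertain. The erythroid sums were 9197 to 19046, 3128 to 11727 and 2634 to 10299, and the mesothelial sums 455 to 2129, 170 to 364 and 159 to 723. Of 5 load markers 5 were higher than SD in vehicle dTGR and 4 in treated dTGR, at sums of 114624 to 216237, 280117 to 346909 and 235920 to 357007. The part of these cell types in the gene results was not tested.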

How the data were processed

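Left ventricle RNA of 28 rats was measured on 1-colour whole-transcript arrays. The deposited values are linear intensities from 1.90 to 162208, made with RMA per the submitters' processing notes, with version and scaling not given in the sources used here. Probe signal over local background was not used here, and the number of arrays limits the precision. Groups came from the labels. The files' 36685 probes were named through the platform annotation: 14824 had 1 symbol, 829 several and 21032 none. Log2 was taken, probes with a mean above the 30th percentile (5.65, an intensity of 50.2) were kept (11691), and the brightest probe stood for each of 11493 genes. Differences were tested with limma 3.58.1 in R 4.3.3 (1 mean per group over all 28 arrays, empirical Bayes with an intensity trend, two-sided, Benjamini-Hochberg over all genes). The scripts were tested on simulated data. Every gene of the set is accounted for. Full ranges are given for the 4 called genes with the largest difference per comparison and the largest of each step (Slc25a20 was added after its values were seen), and from the other lists at most 2 called genes per comparison are named. The genes and lists were chosen with earlier results of these data known. Whether rats shared a litter or a hybridisation day is not given, so p-values measure the spread between these animals. Promoters came from RefSeq's GRCr8 table. Alternatives varied filter, scaling, prior, weights, probe choice and arrays.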

Additional observations from a re-analysis of the deposited data

Results flagged for a closer look

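Slc25a20 in SD replicate 7 was 13.04, while the other 7 SD arrays lay between 12.82 and 12.92. Its gap to the nearest array was 0.538 of the group's whole range, past the Dixon limit for a group of 8. Of 76 such tests over the 38 genes in SD and vehicle dTGR this was the only one past the limit, where chance gives about 1 in 20, and the 12 treated arrays were not tested. The Slc25a20 differences from SD kept their direction and their call without that array.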

How the results depend on the processing

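Over 40 alternatives no gene of the 38 with a call changed direction. Of 24 calls in vehicle dTGR against SD, 22 were kept in every alternative, of 6 with treatment 3, and of 24 in treated dTGR against SD 15. Leaving out 1 array at a time gave 21 to 22 lower and 2 to 4 higher (median -0.26 to -0.22) in vehicle dTGR against SD, 3 to 6 lower and 0 to 4 higher (median -0.05 to -0.0045) with treatment, and 22 to 25 lower and 0 to 0 higher (median -0.26 to -0.22) in treated dTGR against SD. The count of 2 genes higher with treatment was 0 without vehicle replicate 1, 2 or 4 or treated replicate 2, and 4 without vehicle replicate 3, 6 or 7. It was 1 with no filter, with arrays centred on their medians and with array weights, 0 without the intensity trend and with only both groups fitted, 4 with arrays centred on mitochondrial markers and 5 without vehicle replicates 6 and 7, which also gave 7 lower. The fit without vehicle replicates 6 and 7 called 2066 of all 11500 genes with treatment, against 1125 of 11493 as reported. Because those replicates were picked for lying within the treated span, that fit favours larger differences and is no independent check. Centring on mitochondrial markers gave 5 higher in vehicle dTGR against SD (median -0.16) and 15 lower and 1 higher in treated dTGR against SD (median -0.13). It moved the median of all genes to 0.08, 0.04 and 0.13 in the comparisons in the order above, from 0.0033, 0.0097 and 0.014, and of all called genes 30.1%, 33.1% and 15.8% were then lower, against 49.3%, 45.2% and 45.2% as reported, and 63.8%, 37.9% and 57.2% with cardiomyocyte centring. Under cardiomyocyte centring the 38 genes gave 24 lower and 2 higher, 4 and 3, and 27 and 0. Centring subtracts the marker mean from each array. It therefore shifts every gene's difference by the same amount, opposite in sign to the mean difference of the markers. Why the markers differed between groups was not tested. No paired analysis was possible because animal numbers differ between groups. Precision is limited by 8 arrays in the smaller groups.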
